A study of Homo sapiens with 5 samples.

Results

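Small nucleolar RNAs (snoRNAs) of the box C/D and box H/ACA classes were examined in K562 cells, an established human erythroleukaemia line, with or without an induced short hairpin RNA (shRNA) against the histone demethylase JMJD1B. Members were the genes whose symbol starts with SNORA or SNORD followed by a digit, with the U3 genes SNORD3A to SNORD3D left out, and whose probe had a detection p-value under 0.05 on 2 or more arrays. This gave 120 genes, 62 of box C/D and 58 of box H/ACA, among 11041 genes measured, and every snoRNA gene with a labelled probe passed the detection filter. The groups were sh-JMJD1B (3 arrays), labelled JMJD1B knock-down, and sh-CTL (2 arrays), labelled as the control. Both groups were stable lines that carry an inducible (Tet-on) hairpin, and both received 1 µg/ml doxycycline for 48 h. The labels do not say whether replicates were separate cultures or how many hairpins or clones stand behind a group, so p-values measure only the spread between these samples, which may be technical. A difference between the lines and an effect of the hairpin cannot be told apart, and JMJD1B itself was not analysed here.

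Box C/D snoRNAs guide 2′-O-methylation of ribosomal RNA together with the methyltransferase fibrillarin (FBL), and box H/ACA snoRNAs guide conversion of uridine to pseudouridine together with dyskerin (DKC1). A few snoRNAs, such as U3, U14 and U17, are needed for cutting the ribosomal RNA precursor, a role that does not exclude guiding a modification. In human cells most snoRNAs are released from the introns of host genes, many of which encode ribosomal proteins or translation factors, while other hosts are non-coding RNAs whose spliced exons encode no protein. Many of these hosts start with a C followed by a run of pyrimidines, the feature known from mRNAs of the translation machinery. The arrays were read from amplified cRNA made with a kit that primes from poly(A) tails, which mature snoRNAs lack. Whether a signal came from the mature snoRNA, a precursor or a host transcript was not tested.

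Among the 120 snoRNA genes, 8 were higher in sh-JMJD1B cells and 0 were lower at a Benjamini-Hochberg adjusted p under 0.05 in limma. The 8 are 6.67% of the members, beside 2.56% of all genes higher and 3.7% of all genes lower in the same fit (2.35% and 2.72% of all probes). They were SNORD14D, SNORA72, SNORD30, SNORD14A, SNORA2C, SNORD100, SNORD14C and SNORA3B, with log2 differences of 0.27 to 0.49, or 1.2-fold to 1.4-fold. Of these, 3 were copies of U14, the box C/D snoRNA that pairs with the precursor of 18S ribosomal RNA. At an unadjusted p under 0.05, 23 members were higher and 5 lower, beside 10.1% and 13.9% of all genes. All differences are sh-JMJD1B minus sh-CTL on the scale log2(signal + 16) after quantile normalization, given with their standard error (n = 3 and 2 arrays). Probe background was not subtracted, so the differences understate changes of dim probes. With 1 array fewer, 4, 4 and 5 members were higher without sh-JMJD1B replicates 1, 2 and 3, and 4 and 3 without sh-CTL replicates 1 and 2. With normexp background correction 4 were higher, and with a pooled background subtracted 0 (21 higher and 5 lower at an unadjusted p under 0.05 in limma).

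Each of the 8 lies within another gene, and these were 7 genes since HSPA8 holds 2 of them. The start regions of 6 of the 7 hosts are shown so that the starts can be read beside the snoRNAs they hold, and that of RPL30, the host of SNORA72, was not analysed here. Sequences run 5′ to 3′ on the strand of the host, from 60 bases before to 20 bases from the annotated start, from RefSeq on build GRCh38.p14. Capitals mark a run of pyrimidines that opens with C at the start itself, or, in HSPA8, matches to the letters GAANNTTC (N is any base) and TATAA.
RPS13: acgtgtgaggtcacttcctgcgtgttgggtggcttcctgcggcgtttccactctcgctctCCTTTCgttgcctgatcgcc
RPL27A: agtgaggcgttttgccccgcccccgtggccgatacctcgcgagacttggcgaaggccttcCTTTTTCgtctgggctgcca
RPS12: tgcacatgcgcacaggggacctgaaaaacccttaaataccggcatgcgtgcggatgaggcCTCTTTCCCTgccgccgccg
HSPA8: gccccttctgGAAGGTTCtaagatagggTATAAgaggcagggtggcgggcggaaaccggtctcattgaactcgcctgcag
SNHG1: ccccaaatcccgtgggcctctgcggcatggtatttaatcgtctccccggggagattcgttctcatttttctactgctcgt
KANSL2: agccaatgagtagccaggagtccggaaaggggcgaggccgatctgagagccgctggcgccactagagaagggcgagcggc
These lie at chr11:17077648-17077727 (minus strand), chr11:8682732-8682811 (plus strand), chr6:132814509-132814588 (plus strand), chr11:123062117-123062196 (minus strand), chr11:62855866-62855945 (minus strand) and chr12:48682219-48682298 (minus strand). A C followed by at least 4 pyrimidines opened the transcript in 3 of the 6, all of them ribosomal protein genes, with runs of 6 bases in RPS13, 7 in RPL27A and 10 in RPS12. Among 35116 RefSeq promoters 4.07% had such a run at the annotated start. HSPA8, which encodes a constitutive heat shock protein of the Hsp70 family, had TATAA 32 bases and GAANNTTC 50 bases before its start. In a window of the same 80 bases, TATAA occurred on the strand of the gene, as in HSPA8, in 5.72% of promoters. On either strand it occurred in 7.66%, and the palindrome GAANNTTC in 1.78%. No overlap between these motifs occurred in the HSPA8 window. In SNHG1 and KANSL2 no such pyrimidine run opened the transcript at the annotated start. TATAA and GAANNTTC were absent from their windows, and pyrimidine runs elsewhere in the windows were not searched. The matches describe letters in these windows and were not tested against the array values.

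U14 was represented by 4 measured copies, SNORD14A and SNORD14B in RPS13 and SNORD14C and SNORD14D in HSPA8. SNORD14D read 10.26, 10.39 and 10.35 on the sh-JMJD1B arrays, against 9.92 and 9.76 on the sh-CTL arrays. Its groups did not overlap, and the difference of 0.49 ± 0.07 was the highest among the members (adjusted p = 0.0049 in limma). SNORD14A read 10.31, 10.35 and 10.32 on the sh-JMJD1B arrays, against 9.95 and 9.97 on the sh-CTL arrays. Replicates of SNORD14A lay close together in both groups, with a difference of 0.36 ± 0.06 (adjusted p = 0.0068 in limma). SNORD14C read 10.38, 10.44 and 10.36 in sh-JMJD1B cells, against 10.06 and 10.14 in sh-CTL cells. It was higher on every sh-JMJD1B array by a smaller margin, 0.29 ± 0.06 (adjusted p = 0.024 in limma). SNORD14B read 8.03, 8.13 and 8.38 in sh-JMJD1B cells, against 8.06 and 8.03 in sh-CTL cells. Its groups overlapped and its difference of 0.13 ± 0.09 did not pass (adjusted p = 0.46 in limma). The copies are close to each other in sequence, probe sequences were not used here, and signal shared between the copies cannot be told apart. The 3 calls among the copies are therefore not independent. Leaving out 1 array at a time kept SNORD14D past the threshold in all 5 cases. SNORD14A was lost without sh-CTL replicate 1 (0.36, adjusted p = 0.051 in limma). SNORD14C passed in none of the 5 fits with 1 array fewer, in which its difference ranged from 0.25 to 0.33.

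SNORD30 and SNORD100 were the other box C/D snoRNAs past the threshold. SNORD30, which guides a methylation of 28S ribosomal RNA and lies in the non-coding host SNHG1, read 9.19, 9.06 and 9.15 in sh-JMJD1B cells, against 8.75 and 8.74 in sh-CTL cells. Every sh-JMJD1B array was above both sh-CTL arrays, by 0.39 ± 0.06 on average (adjusted p = 0.0076 in limma). SNORD100, a guide of 18S ribosomal RNA within RPS12, read 8.8, 8.88 and 8.88 in sh-JMJD1B cells, against 8.65 and 8.47 in sh-CTL cells. Its groups did not overlap, and the difference of 0.29 ± 0.07 was close to the threshold (adjusted p = 0.042 in limma). SNORD30 was lost without sh-CTL replicate 2 (0.38, adjusted p = 0.057 in limma). SNORD100 passed in 1 of the 5 fits with 1 array fewer, the one without sh-CTL replicate 1 (0.39, adjusted p = 0.044 in limma), and had 0.2 without sh-CTL replicate 2.

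Of the box H/ACA genes, SNORA72, SNORA2C and SNORA3B passed. SNORA72, in the ribosomal protein gene RPL30, read 9.31, 9.2 and 9.24 in sh-JMJD1B cells, against 8.79 and 8.85 in sh-CTL cells. The gap between the groups was wider than the spread within either, 0.43 ± 0.06 (adjusted p = 0.0048 in limma), and it passed whichever single array was left out. SNORA2C, in KANSL2, a gene for a subunit of a histone acetyltransferase complex, read 7.81, 7.91 and 7.69 in sh-JMJD1B cells, against 7.53 and 7.35 in sh-CTL cells. It was detected on 3 sh-JMJD1B arrays and 1 sh-CTL array, so these values lie near the background, which stood at 7.13 on this scale. Its difference was 0.36 ± 0.08 (adjusted p = 0.033 in limma), and among the fits with 1 array fewer it passed only without sh-JMJD1B replicate 3 (0.42, adjusted p = 0.031 in limma). The difference was 0.76 with normexp and 1.37 with the pooled background subtracted, and passed in neither (adjusted p = 0.086 and 0.15 in limma). SNORA3B, in the ribosomal protein gene RPL27A, read 9.54, 9.55 and 9.59 in sh-JMJD1B cells, against 9.33 and 9.25 in sh-CTL cells. All its sh-JMJD1B arrays were above both sh-CTL arrays, by 0.27 ± 0.06 (adjusted p = 0.032 in limma), and it passed in none of the 5 fits with 1 array fewer, with differences of 0.23 to 0.31.

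**Figure D1:**
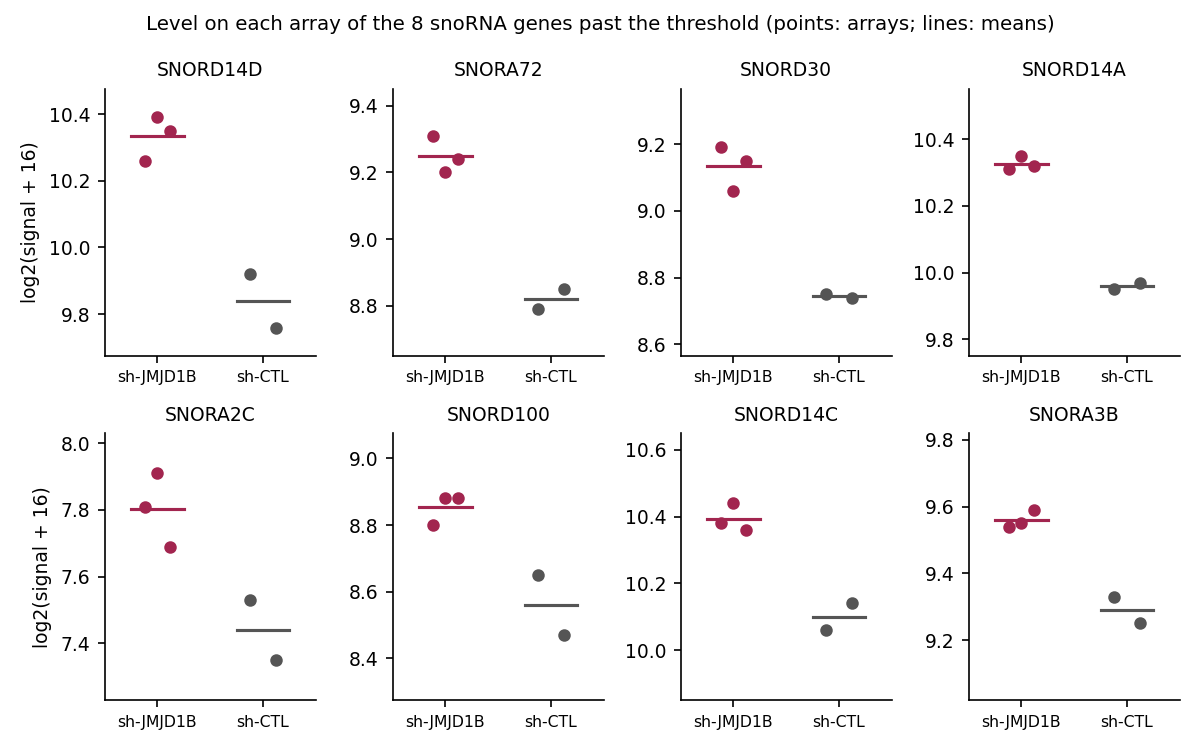
Level on each array of the 8 snoRNA genes past the threshold, as log2(signal + 16) after quantile normalization, with points for arrays (3 sh-JMJD1B, 2 sh-CTL) and lines for group means. Each panel has its own vertical range, and in all 8 panels the sh-JMJD1B points lie above the sh-CTL points, with differences of 0.27 to 0.49.

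Over the whole list the differences leaned to higher values in sh-JMJD1B cells. Their median difference was 0.07, beside -0.01 over all genes, and 82 of 120 (68.3%) had a difference above 0, beside 46.8% of all genes. The groups did not overlap, with sh-JMJD1B higher, in 44 members (36.7%, beside 17.9% of all genes), and with sh-JMJD1B lower in 10 members (8.33%, beside 23.9% of all genes). These counts describe the list and carry no test, since members share hosts and were measured on the same 5 arrays. On the arrays taken one by one, the median level of the members was 8.31, 8.29 and 8.36 in sh-JMJD1B cells, against 8.23 and 8.3 in sh-CTL cells. Those medians overlapped between the groups, so the difference of the list was no larger than the spread between arrays of 1 group.

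Box C/D genes had 5 of 62 members past the threshold, all higher, a median of 0.08 and 46 members above 0. Box H/ACA genes had 3 of 58, all higher, a median of 0.04 and 36 members above 0. Those above 0 were 74.2% of box C/D and 62.1% of box H/ACA genes, beside 46.8% of all genes, and the called ones 8.06% and 5.17%, beside 2.56%. The groups did not overlap with sh-JMJD1B higher in 27 box C/D (43.5%) and 17 box H/ACA genes (29.3%), beside 17.9% of all genes. With sh-JMJD1B lower they did not overlap in 2 (3.23%) and 8 (13.8%), beside 23.9% of all genes. Whether the classes differ was not tested. The quartiles of the members' differences were -0.02 and 0.15, while the median standard error of a single gene was 0.07.

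**Figure D2:**
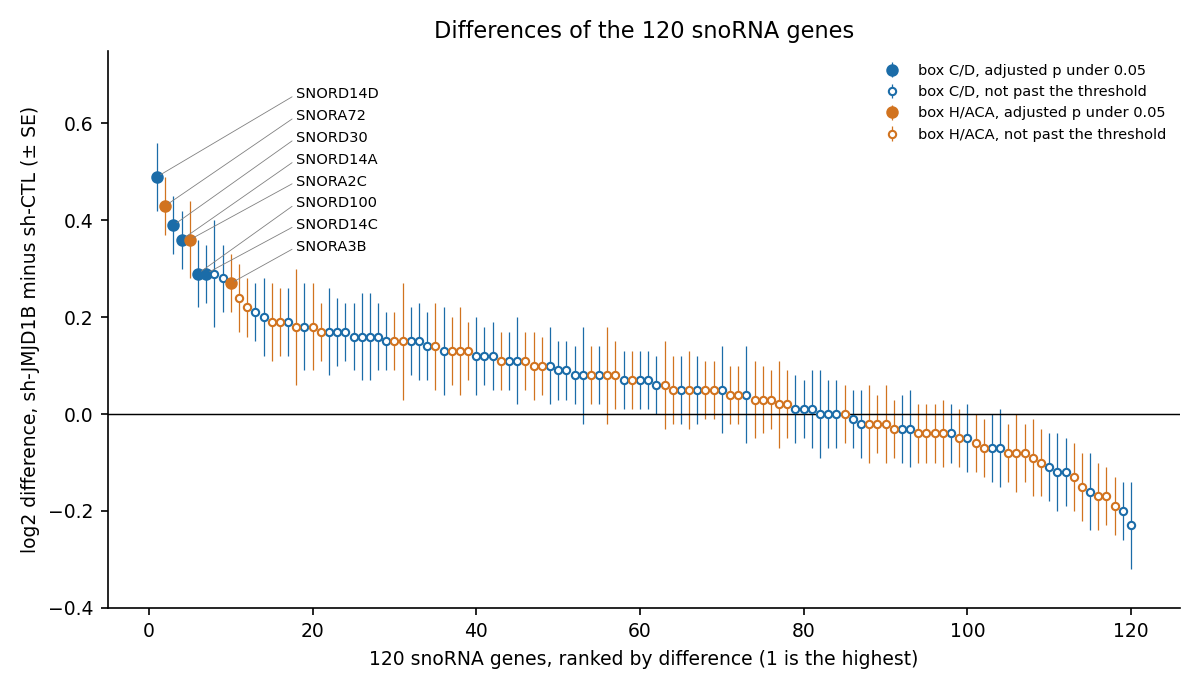
Log2 difference (sh-JMJD1B minus sh-CTL, ± SE) of the 120 snoRNA genes in order of size, coloured by class, with filled points for an adjusted p under 0.05. The differences run from 0.49 for SNORD14D to -0.23 for SNORD13, and the filled points are at the high end.

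SNORD52, SNORD38B and SNORA13 had the largest differences among the members that did not pass. SNORD38B, a box C/D snoRNA, read 8.19, 8.05 and 7.97 in sh-JMJD1B cells, against 7.79 and 7.8 in sh-CTL cells (0.28 ± 0.07, adjusted p = 0.059 in limma). SNORD52 read 8.82, 8.59 and 8.58 in sh-JMJD1B cells, against 8.55 and 8.19 in sh-CTL cells, and the distance between its sh-CTL arrays was larger than its difference of 0.29 ± 0.11 (adjusted p = 0.16 in limma). SNORA13, of the non-coding host EPB41L4A-AS1, read 8.2, 8.14 and 8.35 in sh-JMJD1B cells, against 8.02 and 7.97 in sh-CTL cells (0.24 ± 0.07, adjusted p = 0.095 in limma). SNORD52 had 0.47 without sh-CTL replicate 1 and 0.11 without sh-CTL replicate 2. SNORA24 (0.22 ± 0.06) and SNORD21 (0.21 ± 0.06) had smaller differences and adjusted p of 0.075 and 0.083 in limma. In all of these, no sh-JMJD1B array was below an sh-CTL array, as in 17.9% of all genes. These members were taken for their high differences, which favours such a gap.

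At the other end, SNORD13 had the lowest difference, -0.23 ± 0.09 (adjusted p = 0.18 in limma). SNORD13 (U13) takes part in acetylation of 18S ribosomal RNA and is one of 2 members with no gene around it in the annotation. It read 8.41, 8.34 and 8.6 in sh-JMJD1B cells, against 8.57 and 8.8 in sh-CTL cells, so its groups overlapped. Its difference was -0.34 without sh-CTL replicate 1 and -0.12 without sh-CTL replicate 2. The next lowest were SNORD7, a guide of the spliceosomal RNA U6, at -0.2 ± 0.06 (adjusted p = 0.098 in limma), and SNORA11C at -0.19 ± 0.06 (adjusted p = 0.12 in limma). Both lay near the background, at 7.55, 7.41 and 7.47 in sh-JMJD1B cells against 7.66 and 7.7 in sh-CTL cells for SNORD7, and were detected on 1 sh-JMJD1B array and both sh-CTL arrays.

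Besides U14, snoRNAs were sorted by role into those of precursor processing or acetylation, guides of U6, and normalisers of PCR assays. SNORD13, SNORD22 (U22), SNORA73A and SNORA73B (copies of U17), SNORA62 and SNORA63 had 0 of 6 past the threshold in limma, with differences of -0.23 to 0.19 and a median of 0.1. At an unadjusted p under 0.05, 1 of the 6 was higher and 1 lower, and the difference between these genes and U14 was not tested. The guides of U6 (SNORD7, SNORD10, SNORD67 and SNORD94) had 0 of 4 past it, from -0.2 to 0.17, with 1 higher and 1 lower at an unadjusted p under 0.05. SNORD48, SNORD68, SNORD95 and SNORD96A, which are widely used to normalise small-RNA PCR assays, had 0 of 4, adjusted or not, with differences of -0.12 to 0.09. Over all genes, 2.56% were higher and 3.7% lower past the threshold, and 10.1% and 13.9% at an unadjusted p under 0.05 in limma. Sets of 4 or 6 genes are too small to be told apart from these shares.

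The probes with the highest signal among the members showed small and large differences alike. SNORA25 read 11.71, 11.63 and 11.69 in sh-JMJD1B cells, against 11.76 and 11.5 in sh-CTL cells (0.05 ± 0.08, adjusted p = 0.78 in limma). SNORA8, which lies in the same host, TAF1D, read 10.57, 10.48 and 10.34 in sh-JMJD1B cells, against 10.52 and 10.59 in sh-CTL cells (-0.09 ± 0.08, adjusted p = 0.52 in limma). In both, the groups overlapped. SNORD104 had 0.05 ± 0.07 (adjusted p = 0.73 in limma) and SNORA32 0.13 ± 0.06 (adjusted p = 0.27 in limma), and the other 2 of the highest 6 were SNORD14C and SNORD14A.

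Calls were also counted by distance from the background. Of the members, 109 were detected on all 5 arrays, 5 on 4, 5 on 3 and 1 on 2, and 49 lay within 1 log2 unit of the background. Under a mean level of 8, 1 of 39 members was higher, beside 1.31% of all genes in that band. From 8 to 9, 2 of 50 were higher (3.08% of all genes), from 9 to 10, 2 of 23 (3.09%), and at 10 or more, 3 of 8 (2.72%), all of them U14 copies. The bands sort probes by signal and set no snoRNA's amount against another's. The part of the background in the differences was not tested in these bands.

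**Figure D3:**
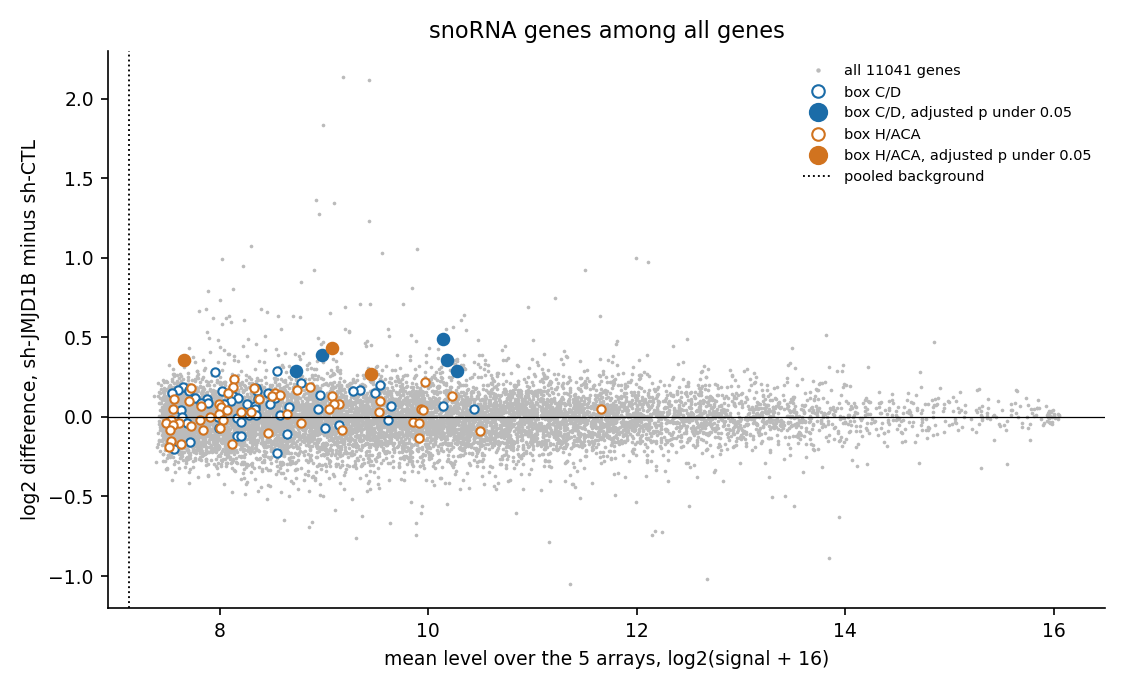
Log2 difference (sh-JMJD1B minus sh-CTL) against the mean level over the 5 arrays, as log2(signal + 16), for all 11041 genes in grey and the snoRNA genes in colour, with the pooled background at 7.13. The snoRNA genes lie between levels of 7.49 and 11.66, and their differences fall between -0.23 and 0.49.

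Host genes were set beside the snoRNAs they hold. By gene extent, 118 of the 120 members lay within 80 genes, of which 62 were measured. None of the 62 passed the threshold in limma, beside 2.56% of all genes higher and 3.7% lower, and their median difference was -0.02. At an unadjusted p under 0.05, 0 hosts were higher and 5 lower, beside 10.1% and 13.9% of all genes. Of the 92 members with a measured host, 67 had a difference above 0 and 72 had a higher difference than their host. These are differences within each probe, members share hosts, and the counts carry no test. Host and snoRNA levels were not compared. Several hosts of called members had signals near the top of the array, such as RPS12 at 16.04 and RPS13 at 15.7, beside a highest level of 16.06 over all genes.

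For the 8 called snoRNAs, 0 of 7 hosts passed, adjusted or at an unadjusted p under 0.05, in limma. Of all genes, 2.56% were higher and 3.7% lower adjusted, and 10.1% and 13.9% unadjusted. These 7 hosts are too few to be told apart from those shares. HSPA8 read 13.57, 13.65 and 13.58 in sh-JMJD1B cells, against 13.67 and 13.67 in sh-CTL cells (-0.07 ± 0.06, adjusted p = 0.55 in limma), while its snoRNAs SNORD14C and SNORD14D were higher. SNHG1 read 13.8, 13.96 and 13.88 in sh-JMJD1B cells, against 14.09 and 13.97 in sh-CTL cells (-0.15 ± 0.07, adjusted p = 0.25 in limma), while SNORD30 was higher. Host and snoRNA thus had differences of opposite sign in these cases, although the hosts' own differences did not pass. KANSL2 had the highest difference of the 7 hosts, 0.14 ± 0.07 (adjusted p = 0.29 in limma), and RPL30 had 0.07 ± 0.06 (adjusted p = 0.57 in limma). RPS13 had -0.07, RPL27A -0.03 and RPS12 -0.01, each ± 0.06, with adjusted p of 0.59, 0.84 and 0.92 in limma.

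**Figure D4:**
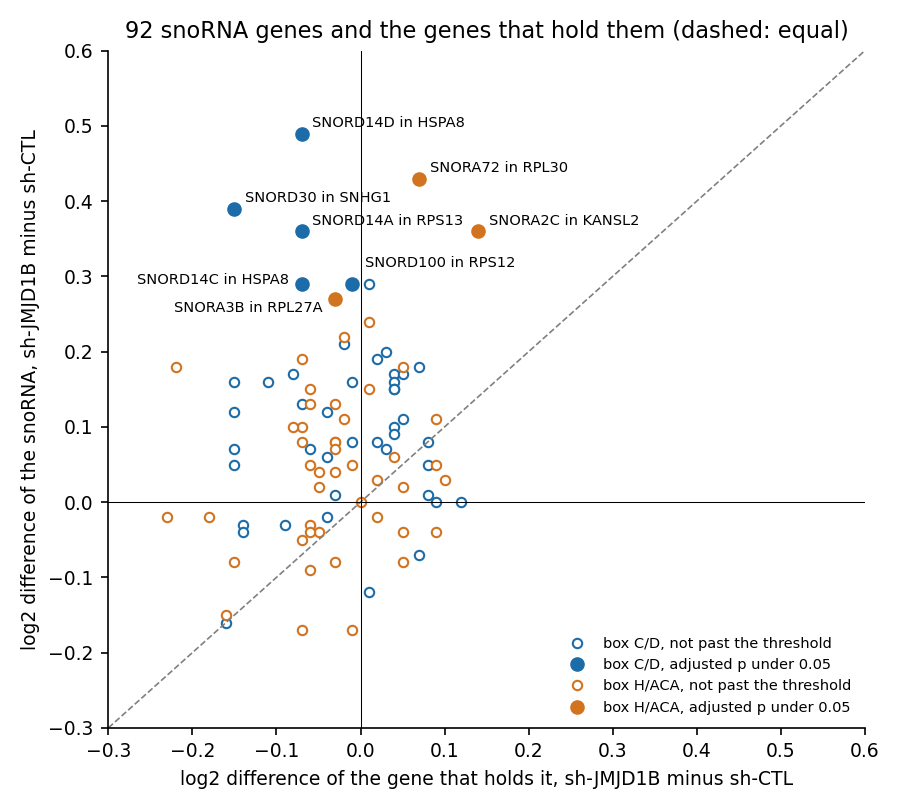
Log2 difference (sh-JMJD1B minus sh-CTL) of 92 snoRNA genes against that of the gene that holds each, with filled points for snoRNAs with an adjusted p under 0.05 and a dashed line where both are equal. The 8 filled points, picked for being higher in sh-JMJD1B cells, lie above the dashed line. Of the 92 members, several of which share a host, 72 exceed their host.

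By kind of host, the 40 members in ribosomal protein genes had 4 past the threshold (10%, beside 2.56% of all genes higher), a median of 0.08 and 32 above 0 (80%, beside 46.8% of all genes). The 25 members in non-coding hosts had 1 past it (4%, near the share over all genes), a median of 0.14 and 19 above 0 (76%). The 50 members in other protein-coding genes had 3 past it (6%), a median of 0.04 and 29 above 0 (58%). The 3 members in pseudogenes and the 2 with no surrounding gene had 0 past it in limma. At an unadjusted p under 0.05, 0 of these were higher and 1 lower (SNORD13), beside 10.1% and 13.9% of all genes. All calls in every kind of host were higher in sh-JMJD1B cells, and differences between the kinds were not tested.

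Members of the same host did not all have the same difference. In 25 hosts with 2 or more members (63 members in all), SNHG1 held SNORD30 (0.39 ± 0.06) with SNORD31 (0.16 ± 0.09), SNORD22 (0.12 ± 0.06) and SNORD25 (0.07 ± 0.06), and of these only SNORD30 passed. RPS12 held SNORD100 (0.29), SNORD101 (0.16) and SNORA33 (0.05), and RPL27A held SNORA3B (0.27) and SNORA3A (0.07). RPL13A, whose snoRNAs are known from work on metabolic stress, had its 4 members between 0.09 and 0.17, all above 0 and none past the threshold (lowest adjusted p = 0.26 in limma). SNHG32 spread from -0.12 (SNORD48) to 0.29 (SNORD52). The 6 members in TAF1D lay between -0.09 and 0.13. HSPA8 was the host with 2 called members. SNORD114-2, of the imprinted cluster of box C/D snoRNAs on chromosome 14, had 0.19 (adjusted p = 0.16 in limma).

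**Figure D5:**
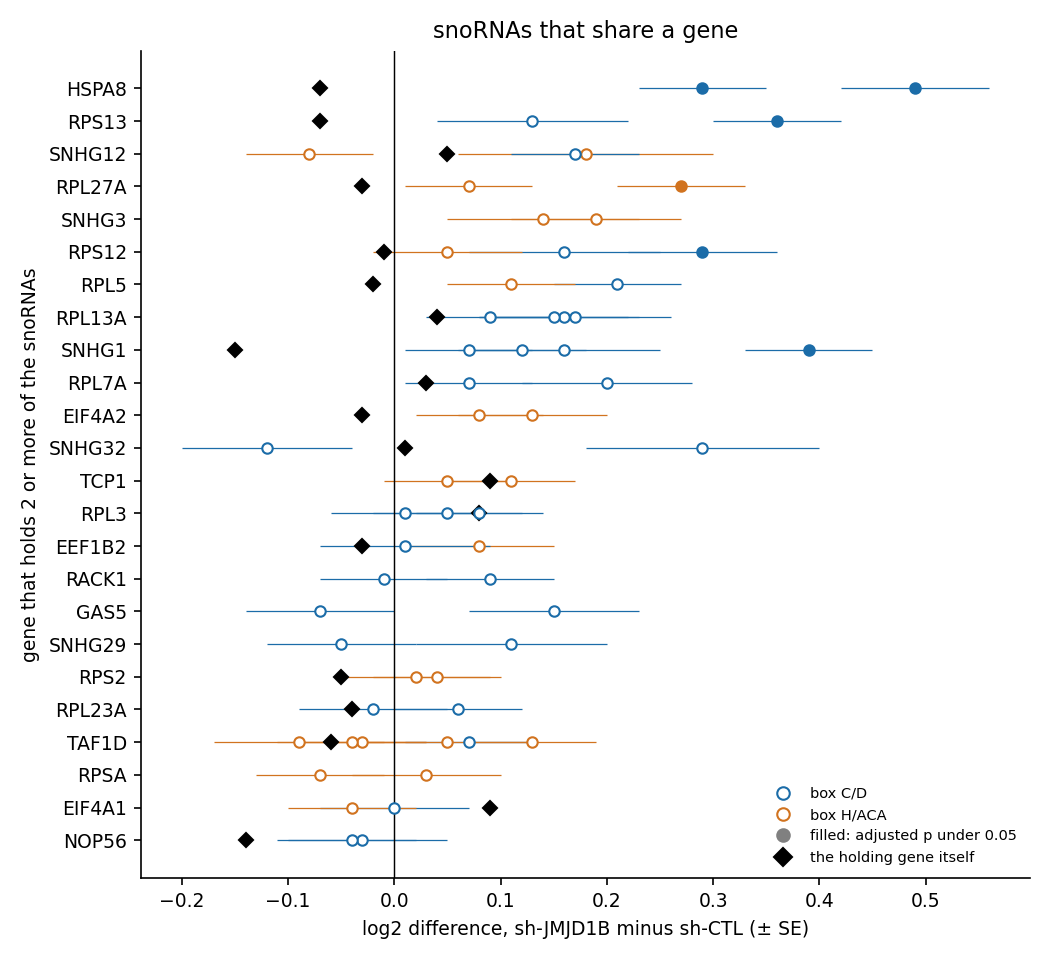
Log2 difference (sh-JMJD1B minus sh-CTL, ± SE) of the snoRNAs in 24 of the 25 genes that hold 2 or more of them, with circles for snoRNAs, filled for an adjusted p under 0.05, and black diamonds for the holding gene where it was measured. Members of RPL13A lie together between 0.09 and 0.17, and those of SNHG1 are spread between 0.07 and 0.39 with SNHG1 itself at -0.15.

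RNA of the genes for proteins that snoRNAs work with showed no change past the threshold, and protein was not measured. Of 37 measured genes for snoRNP proteins, assembly, transport and trimming, 0 passed in limma. Over all genes 2.56% were higher and 3.7% lower. At an unadjusted p under 0.05, 2 of the 37 were higher and 4 lower, beside 10.1% and 13.9% of all genes. FBL read 12.7, 12.73 and 12.79 in sh-JMJD1B cells, against 12.59 and 12.73 in sh-CTL cells (0.08 ± 0.07). DKC1 read 12.48, 12.41 and 12.47 in sh-JMJD1B cells, against 12.45 and 12.51 in sh-CTL cells (-0.03 ± 0.06). The groups overlapped for the genes of both catalytic subunits. The smallest p-values were those of NOLC1, a nucleolar and Cajal body chaperone of snoRNPs, at -0.18 ± 0.06 (adjusted p = 0.13 in limma), and XRN2, a nuclear 5′ to 3′ exonuclease that trims snoRNAs, at 0.19 ± 0.07 (adjusted p = 0.14 in limma). Of 20 non-coding or related snoRNA host genes, 0 passed, beside the 2.56% and 3.7% of all genes. At an unadjusted p under 0.05 in limma, 0 were higher and 4 lower, beside 10.1% and 13.9% of all genes. Lowest among these were SNRPN (-0.22 ± 0.06, adjusted p = 0.061 in limma) and SNHG9 (-0.22 ± 0.06, adjusted p = 0.067 in limma).

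Other small RNA genes had calls mostly in the other direction. Of 31 such genes, 1 was higher and 6 were lower, beside 2.56% and 3.7% of all genes. The members had 8 higher and 0 lower. RN7SK, the RNA that holds the elongation factor P-TEFb inactive, read 13.62, 13.68 and 13.76 in sh-JMJD1B cells, against 14.24 and 14.39 in sh-CTL cells (-0.63 ± 0.07, adjusted p = 0.00084 in limma). The U1 genes RNU1-3 (-0.53 ± 0.08, adjusted p = 0.0071 in limma) and RNU1-1 (-0.61 ± 0.11, adjusted p = 0.014 in limma) were lower as well. So were the U1 variants RNVU1-7 (-0.49 ± 0.11, adjusted p = 0.032 in limma) and RNVU1-18 (-0.4 ± 0.1, adjusted p = 0.041 in limma). The remaining lower call was RNU6-1 (-0.29 ± 0.06, adjusted p = 0.032 in limma). RNU11, of the minor spliceosome, was higher at 0.53 ± 0.1 (adjusted p = 0.015 in limma). The SCARNA genes, guides of the same 2 classes that act in Cajal bodies, had 0 of 10 past the threshold, with a median of 0.02. At an unadjusted p under 0.05 in limma, 1 of the 10 was higher and 2 lower, near the 10.1% and 13.9% of all genes. The U3 genes, box C/D snoRNAs that are not among the members, had -0.12 (SNORD3A), -0.29 (SNORD3C) and -0.29 (SNORD3D), with adjusted p of 0.57, 0.087 and 0.1 in limma. The U1 genes share near-identical copies, as do the U3 genes, so their values are not independent. With 1 array fewer, 4, 3 and 7 of these genes were called without sh-JMJD1B replicates 1, 2 and 3, and 4 and 2 without sh-CTL replicates 1 and 2, where RN7SK was called each time. With normexp RN7SK alone was called, and with the pooled background subtracted 0 were.

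On the arrays as a whole, 18230 to 18596 of 19144 labelled probes were detected, and the median signal ran from 456 to 499. Of 12 markers of K562 cells 11 were measured, with group means of 8.58 to 16, and HBZ, an embryonic globin, was the one called (-0.56, adjusted p = 0.0015 in limma). Of 13 markers of other cell types, 6 were measured, with group means of 7.59 to 15.87. CD3D was higher (0.38, adjusted p = 0.012 in limma) and EPCAM lower (-0.51, adjusted p = 0.0042 in limma), while CD3E, MS4A1, PTPRC, COL1A1, COL1A2 and PECAM1 were not among the probes kept. Their part in the results on snoRNAs was not tested. Fewer cells of a kind and less RNA per cell cannot be told apart in these bulk samples.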

How the data were processed

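The authors deposited bead intensity on a linear scale for 19144 probes under sample names, and the submitters' processing notes name GenomeStudio 2009.2. No settings are stated there. A second deposited table, per the file headers, pairs each signal of 47321 probes with its detection p-value. Probe IDs printed beside the labelled values were misordered: every labelled set of 5 signals equals that of exactly 1 probe of the larger table, but 47 carried its ID. Probes were named through that match, and symbols came from the platform annotation, updated through RefSeq. Signals plus 16 were put on a log2 scale, quantile normalized and fitted with limma 3.58.1 in R 4.3.3 (lmFit, eBayes, 3 residual degrees of freedom) over 19105 probes with a detection p-value under 0.05 on at least 2 arrays. Benjamini-Hochberg adjustment ran over all of them, and 0.05 was the threshold. Each gene was represented by its probe with the highest mean level. Detection-based normexp needs all probes under sample names and was not run. The gene table (GRCh38.p14) gives no strand, so a host is the shortest named gene whose extent holds the snoRNA. The members and gene lists were chosen with earlier results of these data known. Named were all members past the threshold, the 12 with the largest absolute difference, the 6 with the highest level and the hosts of these, and from each other list up to 4 genes past the threshold, or the 2 with the smallest p. Further members, and the other called small RNA genes, were named after their values were seen. Sequences of the snoRNAs and probes were not used here. 1 host gene and 1 marker are not reported here. The model was tested on simulated data. The number of arrays limits the precision.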

Additional observations from a re-analysis of the deposited data

How the results depend on the processing

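Over 17 alternatives planned for the counts, 0 members were lower in any, and the count of higher members was 8 to 11 with cyclic loess, median scaling, no normalization, no detection filter, an offset of 50, detection on all 5 arrays, array weights, trend and robust options, or gene means. It was 4 with normexp (SNORA72, SNORD14A, SNORD14D and SNORD30) and 0 with the pooled background subtracted, where 21 members were higher and 5 lower at an unadjusted p under 0.05 and the lowest adjusted p of a member was 0.056 in limma. The probes called higher and lower over the whole array were 449 and 519, 196 and 167 with normexp, 90 and 46 with the background subtracted, and 791 and 153 without normalization, where 83.8% of calls were higher, beside a median difference of 0.07 over all probes and 0.14 over the members. With the replicate block, 5 members were higher, and over all probes 194 were higher and 145 lower. Only 2 replicate numbers are shared by the groups, with correlations of deviations of -0.22 and -0.09. These values show no sign that the numbers pair the samples, but so few arrays cannot settle it. Leaving out 1 array at a time gave 3 to 5 higher members, 175 to 240 higher and 126 to 218 lower probes, and 2 to 7 called genes among the other small RNA genes. Those were 7 as reported, 1 with normexp and 0 with the background subtracted. Called host genes numbered 1 with an offset of 50 or detection on all 5 arrays (EP400, lower), and 2 with trend and robust options or gene means (EP400 and SNHG9). Called non-coding hosts numbered 1 with detection on all 5 arrays (SNRPN), 1 with trend and robust options (SNHG9) and 2 with gene means. Among named members the sign turned for SNORA25 (-0.08 without sh-CTL replicate 2, 0.18 without sh-CTL replicate 1) and SNORD104 (-0.02 without sh-CTL replicate 1, 0.12 without sh-CTL replicate 2), neither of them past the threshold. SNORA72 and SNORD14D passed in 16 of 17 alternatives, SNORD14A and SNORD30 in 15, SNORD100 in 10, SNORA2C in 10 of 16, and SNORA3B and SNORD14C in 9. With the misordered IDs printed beside the labelled values, an alternative chosen after seeing the data, 5 members were higher and 2 lower. The cause of these changes was not tested, and 49 members lay within 1 log2 unit of the background, which limits what the arrays can show for them.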
